A study of Mus musculus with 2 samples.

Results

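The acute phase response is the change in plasma proteins that follows infection, injury or inflammation. In sorted cells that the study describes as aortic macrophages, 10 of its genes were examined. These were the serum amyloid A (SAA) genes Saa1, Saa2, Saa3 and Saa4, the orosomucoid genes Orm1 and Orm2, and Apcs, Itih4, Hp and Hpx. They were chosen by name among the 54532 genes of the deposited expression table, and all 10 were found there. RNA sequencing compared the PDR (Phlegm-Dampness Retention) group with the SKYD (Spleen and Kidney Yang Deficiency) group, which are models of dyslipidemia with different syndromes of traditional Chinese medicine. All mice were male and ApoE-/- on the C57BL/6J background and were 6 weeks old at the start. For the PDR mice, a high-fat diet was given over 4 weeks. The SKYD mice received 0.1% propylthiouracil, a drug that lowers thyroid hormone, by gavage at 10 mg/kg per day for 4 weeks and a high-fat diet for 2 weeks after it. Aortas were digested with trypsin after a fast of 18 h, and cells labelled for F4/80 and CD11b were sorted. The cells of 5 mice went into 1 library in each group, so that no difference below has a replicate check. Syndrome, drug, time on the diet and age cannot be told apart in this design.

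Liver cells make most acute phase proteins and release them into plasma. Interleukin 6, interleukin 1 and tumour necrosis factor induce their genes through STAT3, C/EBP and NF-kappaB transcription factors. SAA proteins are small apolipoproteins that bind high-density lipoprotein and can displace its usual apolipoprotein. In the mouse, Saa1 and Saa2 are the liver's inducible plasma forms, Saa4 is made constitutively in the liver, and Saa3 is made mainly outside the liver, with macrophages and fat cells among its sources. Saa3 is therefore set here against the 9 members made mainly by the liver. Atherosclerotic tissue is a known site of SAA, which makes the family of interest in the aorta of ApoE-/- mice.

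The authors deposited FPKM values (fragments scaled by transcript length and by sequencing depth) for each gene. Whole reads could be recovered from these values, since FPKM multiplied by gene length is a whole multiple of what 1 read is worth. They summed to 23086889 for PDR and 25427863 for SKYD. Each comparison is expressed as log2(FPKM + 1) in PDR minus that in SKYD, so that a positive value is higher in PDR, and the pseudocount of 1 makes differences of genes with low FPKM smaller. Such differences were taken over the 10399 genes whose mean FPKM was 1 or more, and the median of these was -0.0035. Brackets hold 95% intervals, taken from exact (Clopper-Pearson) binomial limits on PDR's share of the reads of a gene. They reflect counting error alone and say nothing of how mice differ. In pooled cells, fewer cells of a type and less RNA per cell cannot be told apart.

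The sort markers had reads in both libraries. Adgre1, which encodes F4/80, had 87.3 FPKM in PDR and 93.3 FPKM in SKYD. Itgam, which encodes CD11b, had 8.84 FPKM in PDR and 14.4 FPKM in SKYD. The knockout target Apoe had 17336 reads in PDR and 3618 reads in SKYD. A table of genes does not tell which exons hold the reads, so the genotype in the labels could not be checked from these values.

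Saa3 was the most abundant of the 10 genes in both libraries, and it was also the member with the largest excess in SKYD. Saa3 (ENSMUSG00000040026, chromosome 7 from 46711998 to 46715700 of GRCm38, minus strand) had 456 FPKM in PDR and 1767 FPKM in SKYD. By FPKM it ranked 174 among all genes of the PDR library and 41 among those of the SKYD library. SKYD was thus the high library, at 3.87 times the PDR level (95% interval 3.82 to 3.93). The log2 difference was -1.95 [-1.97, -1.93], from 27911 reads in PDR and 115085 in SKYD. Saa3 took 0.121% of all reads on genes in PDR and 0.453% in SKYD. No other annotated gene overlaps Saa3, and no stretch of 100 bases of its transcripts is found in transcripts of another gene, so that its reads can be assigned to it.

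The other SAA genes had far lower levels and were higher in PDR. Saa1 (ENSMUSG00000074115, chromosome 7 from 46740497 to 46742980) had 5.89 FPKM in PDR and 3.78 FPKM in SKYD, a log2 difference of 0.53 [0.33, 0.73]. Saa2 (ENSMUSG00000057465, chromosome 7 from 46751790 to 46754313) had 3.28 FPKM in PDR and 1.43 FPKM in SKYD, a log2 difference of 0.82 [0.57, 1.05]. Both plasma forms were higher in PDR, with intervals above 0. Saa4 (ENSMUSG00000040017, chromosome 7 from 46727998 to 46732603) had 4.47 FPKM in PDR and 0.955 FPKM in SKYD, a log2 difference of 1.48 [1.22, 1.73]. The constitutive form, whose 50 reads in SKYD were the fewest of the SAA genes in that library, had the widest gap of the family on the PDR side. By the ratio of FPKM without a pseudocount, Saa1 was 1.56-fold, Saa2 2.29-fold and Saa4 4.68-fold higher in PDR.

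Saa3 made up nearly all SAA reads in both libraries. Its share was 97.4% in PDR (95% interval 97.2 to 97.5) and 99.7% in SKYD (95% interval 99.6 to 99.7). The remaining reads of the family were therefore a larger share in PDR than in SKYD. Saa1 contributed 1.20% of SAA reads in PDR and 0.203% in SKYD. Saa1 and Saa2 are close copies, with 94.4% identity between their longest coding transcripts, and they share 230 stretches of 100 bases, 8.96% of those in Saa1 and 8.63% of those in Saa2. Reads from the shared stretches could have been split between these genes or left out, so the separate values of Saa1 and Saa2 are uncertain. The gene length behind FPKM was 2478 bases for Saa1 against 609 bases in its longest coding transcript, and 2606 bases for Saa3 against 2200. With all reads placed on that transcript, FPKM of Saa1 would be 24.0 in PDR and 15.4 in SKYD. Saa3 was still far above Saa1 on that scale, and the comparison between libraries does not depend on the length.

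The sequence before the start of Saa3 is shown beside that of Saa1, since these genes of the same family had opposite differences. Saa4, which lies between them and was also higher in PDR, is not shown. The sequences are RefSeq promoters of GRCm38.p6, written 5′ to 3′ on the strand of the gene. Capitals mark matches, on either strand, to the motif TTNNGNAA for C/EBP factors or GGGNNNNNCC for NF-kappaB, where N is any base. For Saa3 the stretch is chr7:46715701-46715926, and for Saa1 it is chr7:46742981-46743230, both on the minus strand, and the 24 bases of the Saa3 entry that lie within the gene as the deposited table places it are left out.

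Saa3: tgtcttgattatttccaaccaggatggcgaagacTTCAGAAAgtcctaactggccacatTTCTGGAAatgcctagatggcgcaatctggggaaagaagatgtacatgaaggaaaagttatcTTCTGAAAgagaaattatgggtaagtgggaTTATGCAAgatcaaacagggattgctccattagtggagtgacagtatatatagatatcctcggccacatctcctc

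Saa1: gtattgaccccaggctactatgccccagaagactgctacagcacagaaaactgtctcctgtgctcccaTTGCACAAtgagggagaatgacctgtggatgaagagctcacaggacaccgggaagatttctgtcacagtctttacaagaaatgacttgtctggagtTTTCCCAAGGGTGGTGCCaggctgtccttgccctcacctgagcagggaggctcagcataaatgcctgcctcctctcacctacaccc

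The stretch before Saa3 held 4 matches to the C/EBP motif and 0 to the NF-kappaB motif. That before Saa1 held 2 to the C/EBP motif and 1 to the NF-kappaB motif, and the last C/EBP match and the NF-kappaB match stand side by side without overlap. Of 32851 promoters, counting the 250 bases before each start, 36.8% held the C/EBP motif, 45.8% the NF-kappaB motif and 7.02% the STAT motif TTCNNNGAA. Promoters of 8 members were in the table, and 6 of these had the C/EBP motif, 4 the NF-kappaB motif and 2 the STAT motif. These matches describe the letters of the sequences and do not show binding. Over the aligned bases of these 250, Saa1 and Saa2 had 95.6% identity, and Saa1 and Saa3 had 75.1%.

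**Figure D1:**
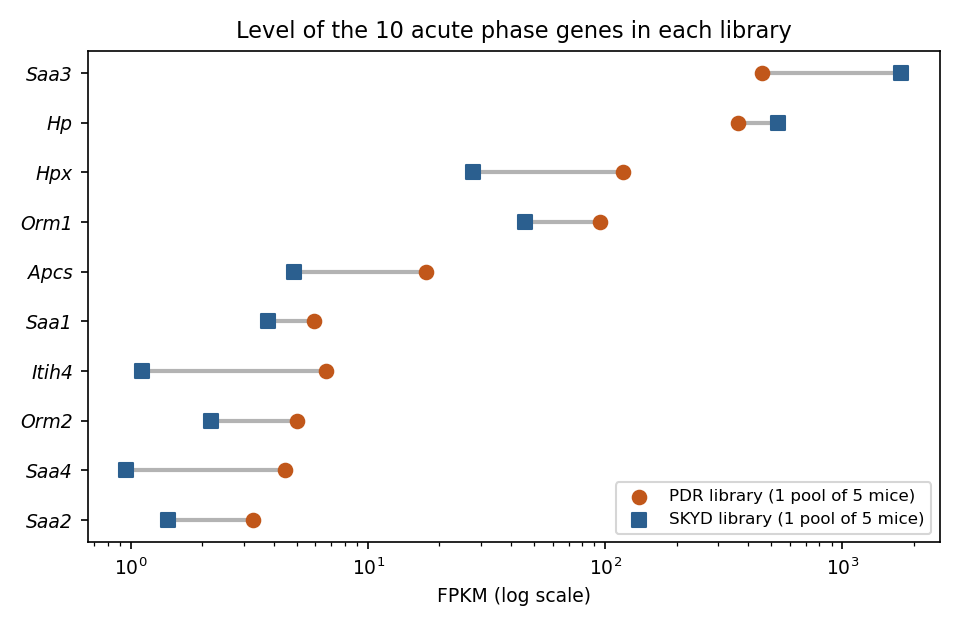
FPKM of the 10 acute phase genes on a log scale, with a circle for the PDR library and a square for the SKYD library, each 1 pool of 5 mice, joined by a grey line. The squares of Saa3 and Hp lie to the right of their circles, and for the other 8 genes the circle lies to the right.

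The orosomucoids are plasma glycoproteins that bind lipophilic compounds and dampen immune responses. Orm1 (ENSMUSG00000039196, chromosome 4 from 63344560 to 63348163) had 95.1 FPKM in PDR and 45.9 FPKM in SKYD, a log2 difference of 1.04 [0.92, 1.15]. Orm2 (ENSMUSG00000061540, chromosome 4 from 63362449 to 63365878) had 5.0 FPKM in PDR and 2.17 FPKM in SKYD, a log2 difference of 0.92 [0.51, 1.32]. The genes were higher in PDR by similar amounts, 2.07-fold for Orm1 and 2.31-fold for Orm2 by ratio, although Orm1 was much more abundant. They share 47 stretches of 100 bases, 6.95% of the stretches in each, so the low level of Orm2 is uncertain next to that of Orm1.

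Orm3, a paralog that lies between them and is not one of the 10, went the other way. It had 0.881 FPKM in PDR and 8.33 FPKM in SKYD, from 16 and 161 reads. Its log2 difference was -2.31 [-2.68, -1.89], and by ratio it was 9.46-fold higher in SKYD (95% interval 5.65 to 16.9). SKYD was therefore the high library for Orm3 and the low library for its neighbours on each side. Its longest coding transcript has 89.0% identity with that of Orm2, and it shares 0 stretches of 100 bases with another gene. The sequences before Orm2, chr4:63362199-63362448, and before Orm3, chr4:63355908-63356157, both on the plus strand, have 89.4% identity and are shown because the genes differ in direction. Capitals again mark the C/EBP motif, of which Orm2 has 2 matches and Orm3 has 1.

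Orm2: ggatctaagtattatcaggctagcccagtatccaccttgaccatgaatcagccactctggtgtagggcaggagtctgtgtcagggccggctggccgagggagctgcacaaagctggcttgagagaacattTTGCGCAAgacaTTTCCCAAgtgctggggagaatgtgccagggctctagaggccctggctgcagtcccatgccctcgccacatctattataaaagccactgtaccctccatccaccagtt

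Orm3: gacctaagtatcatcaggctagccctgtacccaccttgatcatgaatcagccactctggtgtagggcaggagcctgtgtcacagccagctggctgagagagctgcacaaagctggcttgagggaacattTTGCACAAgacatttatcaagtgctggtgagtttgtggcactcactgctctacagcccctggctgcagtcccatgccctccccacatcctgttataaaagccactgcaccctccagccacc

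Hp and Hpx encode haptoglobin and hemopexin, plasma proteins that bind free haemoglobin and free haem, and their differences had opposite signs. Hp (ENSMUSG00000031722, chromosome 8 from 109575128 to 109579172) had 362 FPKM in PDR and 537 FPKM in SKYD, from 13663 and 21554 reads. Haptoglobin was thus abundant in both libraries and higher in SKYD, by 1.48-fold (95% interval 1.45 to 1.51). Its log2 difference was -0.57 [-0.60, -0.54]. Hpx (ENSMUSG00000030895, chromosome 7 from 105591613 to 105600137) had 119 FPKM in PDR and 27.6 FPKM in SKYD, from 4179 and 1033 reads. Hemopexin was higher in PDR, by 4.30-fold (95% interval 4.02 to 4.61), and its log2 difference of 2.07 [1.97, 2.16] was the largest of the 10. Relative to Hpx, Hp was 6.38-fold higher in SKYD than in PDR (95% interval 5.94 to 6.86). Besides liver, neutrophils and their precursors make haptoglobin and store it in granules.

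Apcs encodes serum amyloid P component, a pentraxin of plasma that binds amyloid, and Itih4 encodes a heavy chain of the inter-alpha-trypsin inhibitor family. Apcs (ENSMUSG00000026542, chromosome 1 from 172893961 to 172895041) had 17.5 FPKM in PDR and 4.86 FPKM in SKYD, a log2 difference of 1.66 [1.40, 1.92]. Itih4 (ENSMUSG00000021922, chromosome 14 from 30886476 to 30902353) had 6.67 FPKM in PDR and 1.12 FPKM in SKYD, a log2 difference of 1.86 [1.67, 2.03]. PDR was the high library for both genes. By ratio, Itih4 had the largest excess in PDR of the 10, 5.97-fold, and Apcs was 3.61-fold higher.

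Of the 10 genes, 5 were over 2-fold higher in PDR on the log2(FPKM + 1) scale, against 7.38% of all genes tested. These were Hpx, Itih4, Apcs, Saa4 and Orm1. Saa3 was the 1 gene over 2-fold higher in SKYD, against 6.91% of all genes tested, and the other 4 were within 2-fold. All 10 passed the filter on mean FPKM, but the mean of Saa4 was 2.71 FPKM with under 1 FPKM in SKYD, so that it passed through its level in PDR. The 9 liver-made genes had a median difference of 1.04, and 8 of them were higher in PDR, with Hp as the exception. Without Hp their median was 1.26, and without the paralogs Saa1, Saa2, Orm1 and Orm2 it was 1.66. The difference of Saa3 minus the median of the 9 was -2.99. Orm1 lies near the 2-fold line, with an interval that spans it. By the ratio of FPKM without a pseudocount, a measure chosen after the values were seen, 7 of the 9 were over 2-fold higher in PDR, Saa2 and Orm2 being added, against 10.5% of all genes tested. The sign of each member was the same with FPKM rescaled to TPM and with centring on the median or the trimmed mean.

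**Figure D2:**
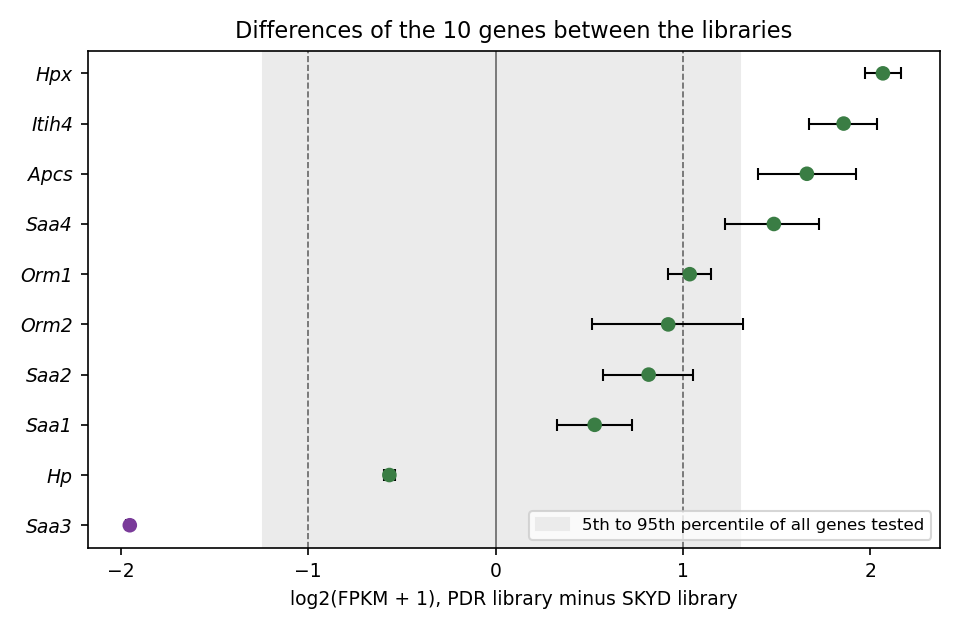
Difference in log2(FPKM + 1), PDR library minus SKYD library, for each of the 10 genes, with 95% intervals of counting error (for Saa3 and Hp these are about as wide as the points). Dashed lines mark 2-fold, and the grey band runs from -1.24 to 1.30, the 5th to 95th percentile of the 10399 genes tested. Saa3, in purple, is at -1.95, and the liver-made genes, in green, run from -0.57 for Hp to 2.07 for Hpx.

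Saa3 was next set against each liver-made member within the same library. In PDR, the FPKM of Saa3 was 1.26 times that of Hp, 3.84 times that of Hpx and 4.79 times that of Orm1. In SKYD it was 3.29 times that of Hp, 64.1 times that of Hpx and 38.5 times that of Orm1. The predominance of Saa3 was thus larger in SKYD for each of these. The change in this ratio from PDR to SKYD was smallest for Hp, 2.61-fold (95% interval 2.55 to 2.68), and largest for Itih4, 23.1-fold (95% interval 18.7 to 28.8). Together the 10 genes took 0.214% of reads in PDR and 0.547% in SKYD. Saa3 gave 56.6% of these reads in PDR and 82.7% in SKYD, and Hp gave 27.7% and 15.5%. The 9 liver-made genes together had similar sums, 619 FPKM in PDR and 625 FPKM in SKYD, because the excess of Hp in SKYD balanced the excess of the others in PDR. Without Hp the sums were 257 FPKM in PDR and 87.8 FPKM in SKYD.

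Hepatocyte genes that are not in the acute phase lists had reads in these sorted cells, and they were also higher in PDR. Of a list of 20 such genes, all had reads and 19 had a mean FPKM of 1 or more. Of these 19, 18 were higher in PDR and 17 were over 2-fold higher, with a median difference of 1.81. Cps1, 1 of the 18, was under 1 FPKM in SKYD and passed the filter through PDR. The list took 0.164% of reads in PDR and 0.0463% in SKYD. Fabp1, the liver's fatty acid binding protein, was the most abundant, with 410 FPKM in PDR and 167 FPKM in SKYD. Apoc3, an apolipoprotein, had a difference of 1.57, and Gc, the vitamin D binding protein, of 1.75. The exception was Hal, a histidine-degrading enzyme that skin also makes, named after its values were seen, with a difference of -1.27. The part of hepatocyte RNA in the differences of the liver-made members was not tested.

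The liver-made members did not all move by as much as these hepatocyte genes. The ratio of PDR to SKYD had a median of 3.74 over the 20 hepatocyte genes. Itih4, at 5.97, lay above 19 of the 20, Saa4 above 16, Hpx above 14 and Apcs above 9. Saa1, Saa2, Orm1, Orm2 and Hp each lay below 19 of the 20. The inducible forms of SAA were thus among the members with the lower ratios. These ranks take no account of counting error. The intervals of the ratios of Orm2, 1.58 to 3.41, Saa2, 1.78 to 2.98, Apcs, 2.93 to 4.47, Saa4, 3.43 to 6.50, Hpx, 4.02 to 4.61, and Itih4, 4.83 to 7.44, each hold the ratio of at least 1 hepatocyte gene, so that their ranks are uncertain, while those of Saa1, Orm1 and Hp hold none.

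Reads per 1000 reads of the hepatocyte list express the same comparison within each library. Per 1000 such reads, Saa1 had 9.06 in PDR and 19.9 in SKYD, 2.19-fold higher in SKYD (95% interval 1.85 to 2.60). Orm1 had 45.8 and 75.6, 1.65-fold higher in SKYD (95% interval 1.52 to 1.80). The direction of these genes on this scale was opposite to that of their FPKM. Saa2 was 1.49-fold higher in SKYD (95% interval 1.15 to 1.93) and Orm2 1.48-fold (95% interval 1.004 to 2.16). Hp had 361 per 1000 in PDR and 1832 in SKYD, 5.07-fold higher in SKYD (95% interval 4.92 to 5.23). Apcs was close to even, with 10.6 and 10.03, and so were albumin (Alb), with 375 and 362, and the pentraxin Crp, with 11.0 and 12.2, whose intervals include 1. Hpx had 110 and 87.8, Saa4 had 5.81 and 4.25, and Itih4 had 15.3 and 8.75, all higher in PDR. The fold was 1.26 for Hpx (95% interval 1.17 to 1.35) and 1.74 for Itih4 (95% interval 1.41 to 2.18). Saa4 was 1.37-fold higher, with a 95% interval of 1.001 to 1.90 that barely excludes 1. Orm3 differed most on this scale, with 0.423 in PDR and 13.7 in SKYD. The hepatocyte list had 37847 reads in PDR and 11766 in SKYD. Except for Hp, each liver-made member had fewer reads than the list in both libraries, and its own reads mainly limit the precision. Hp had 21554 reads in SKYD, more than the list, so the reads of the list limit its precision as well. The choice of the list sets this scale, and another list would shift all genes by the same factor.

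**Figure D3:**
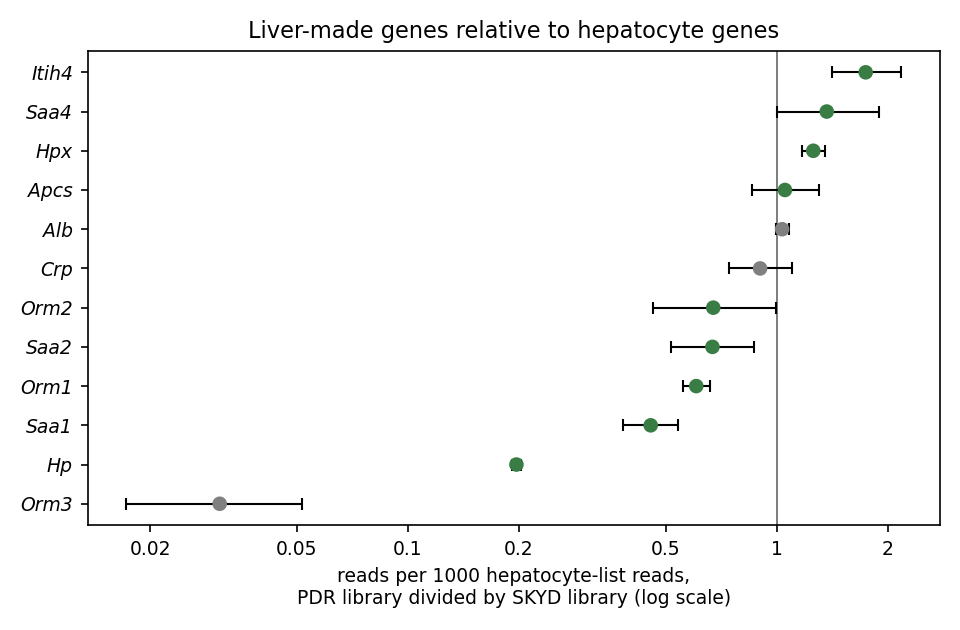
Reads of each gene per 1000 reads of the hepatocyte list, PDR library divided by SKYD library, on a log scale, with 95% intervals of counting error. Members are in green and the comparison genes Alb, Crp and Orm3 in grey. Itih4, Saa4 and Hpx lie to the right of 1, Apcs and Alb at about 1, and Saa1, Saa2, Orm1, Orm2 and Hp to the left.

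Other genes of the acute phase response were read in the same way. Of 24 further genes whose products increase in that response, 23 had a mean FPKM of 1 or more, and their median difference was 0.76. Of these, 8 were over 2-fold higher in PDR and 4 were over 2-fold higher in SKYD. Of those 8, Itih3 and Cfb were under 1 FPKM in SKYD, and of those 4, Mt2 and Orm3 were under 1 FPKM in PDR, so that these genes passed the filter through their high library alone. The 3 most abundant are expressed by many cells besides those of the liver. Mt1, a metallothionein that binds zinc, had 68.5 FPKM in PDR and 1296 FPKM in SKYD, a difference of -4.22 [-4.29, -4.16]. Cd14, the monocyte receptor for endotoxin, had 149 FPKM in PDR and 938 FPKM in SKYD, a difference of -2.65 [-2.69, -2.61]. Lcn2, a lipocalin of neutrophils and other cells that binds iron carriers of bacteria, had 51.7 and 50.3 FPKM and was close to even. Mt2, named after its values were seen, and Orm3 were the other genes more than 2-fold higher in SKYD, with 7 and 278 reads for Mt2. The fibrinogen gene Fgg had a difference of 1.72, near the median of 1.81 of the hepatocyte genes. Others lay well below that median, with C3 at 0.41, C4b at -0.09 and Lbp at -0.95. By ratio, Lbp was 2.07-fold higher in SKYD. Fgg, C3, C4b and Lbp were also named after their values were seen. Of the 23 genes, 17 were higher in PDR and 6 in SKYD.

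Plasma proteins that decrease in the acute phase response were higher in PDR as well. Of 10 such genes, 9 had a mean FPKM of 1 or more, and 8 of these were over 2-fold higher in PDR, with a median of 1.72. Of the 8, F12 and Fetub were under 1 FPKM in SKYD and passed the filter through PDR. The apolipoprotein gene Apoa2 had 793 FPKM in PDR and 294 FPKM in SKYD, and Apoa1 had 402 and 111 FPKM. Alb had 258 and 72.8 FPKM, a difference of 1.81 [1.76, 1.86]. Genes that increase and genes that decrease in an acute phase response thus had positive medians alike in these libraries. The exception was transferrin (Trf), named after its values were seen, at -0.50.

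**Figure D4:**
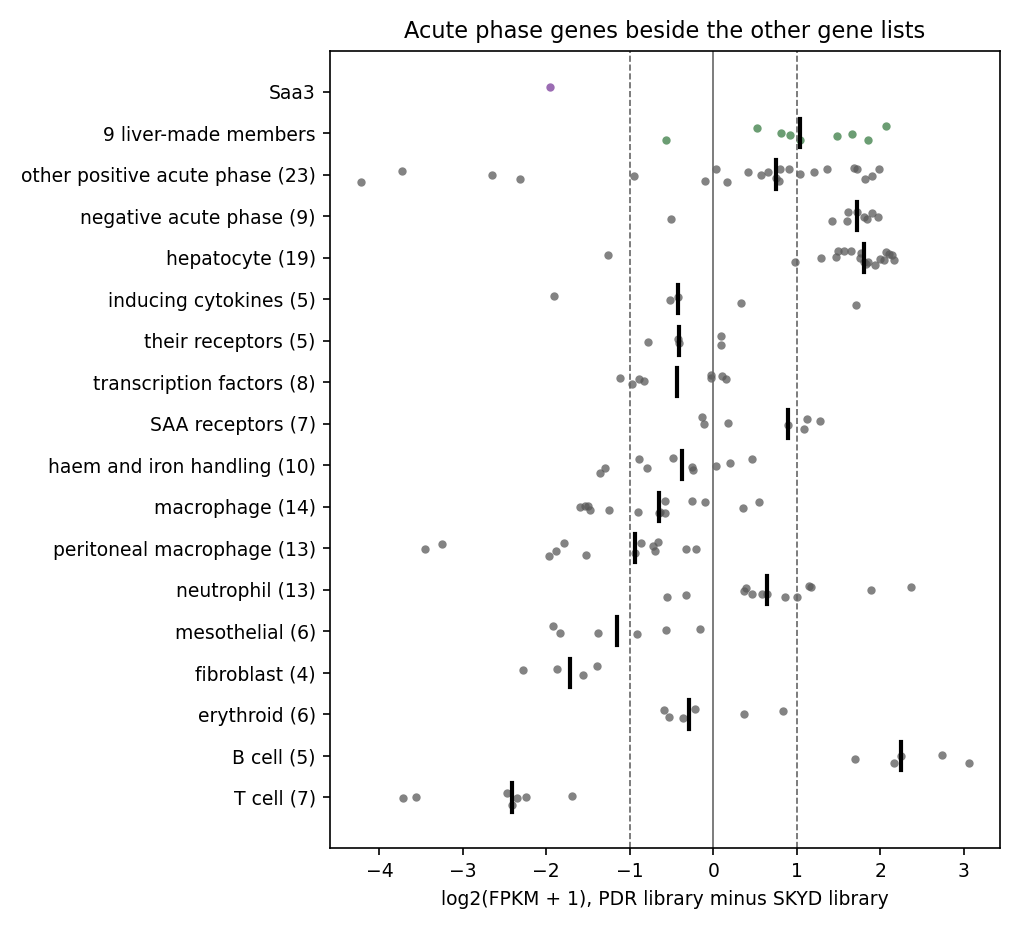
Difference in log2(FPKM + 1), PDR library minus SKYD library, for Saa3, the 9 liver-made members and the genes of 16 further lists with a mean FPKM of 1 or more, whose number stands in brackets. Each point is a gene, black bars are medians of each list, and dashed lines mark 2-fold. The hepatocyte and negative acute phase lists lie mostly to the right of 1, as the liver-made members do in part, while macrophage and peritoneal macrophage lists lie mostly to the left of 0.

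The cytokines that induce acute phase genes did not share a direction. Of 8 genes, 5 had a mean FPKM of 1 or more, with a median difference of -0.42. Il1b, the most abundant, had 89.8 FPKM in PDR and 71.1 FPKM in SKYD, a difference of 0.33 [0.27, 0.40]. Tnf was higher in PDR, with 7.25 and 1.51 FPKM and a difference of 1.71 [1.44, 1.98]. Il6 and Osm, which signal through the shared receptor chain Il6st, were higher in SKYD. Il6 had 4.47 FPKM in PDR and 6.81 FPKM in SKYD, a difference of -0.51 [-0.71, -0.32]. Osm, the gene of oncostatin M, had 3.47 and 15.8 FPKM, a difference of -1.91 [-2.10, -1.72]. Il1a was at -0.42 [-0.67, -0.18]. Il11 and Il22 had 0 reads in both libraries, and Lif had 0 in PDR and 3 in SKYD.

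Of 7 receptor genes for these cytokines, 5 had a mean FPKM of 1 or more, and none of these 5 was past 2-fold. Their median was -0.41. Tnfrsf1a had 31.1 FPKM in PDR and 54.2 FPKM in SKYD, and the interleukin 6 receptor genes Il6ra and Il6st had differences of -0.42 and -0.41. Il6st, whose value is the median, passed the filter through SKYD, and Il1rap through PDR. Lifr and Il1rap were each at 0.09, with intervals that include 0. Il1r1 had 0 reads in PDR, which allows up to 3, and 16 in SKYD. With 3 reads in PDR it would be 5.01-fold higher in SKYD, leaving aside the counting error of the 16.

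C/EBP genes were higher in SKYD. Of 10 transcription factors and feedback genes of the response, 8 had a mean FPKM of 1 or more, with a median of -0.43. Cebpb, the most abundant, had 194 FPKM in PDR and 360 FPKM in SKYD, a difference of -0.89 [-0.93, -0.85]. Cebpd was at -0.83 [-0.93, -0.72] and Cebpa at -0.97 [-1.17, -0.77], and SKYD was the high library for all of them, each within 2-fold on this scale. On the same scale Socs3, which is induced by STAT3 and limits its signal, was the 1 gene past 2-fold. It had 14.5 FPKM in PDR and 32.6 FPKM in SKYD. By ratio without a pseudocount, Cebpa was 2.28-fold and Socs3 2.26-fold higher in SKYD. Stat3 was at -0.03, Rela, an NF-kappaB subunit, at -0.02 and Nfkbiz, a nuclear partner of NF-kappaB, at 0.16, with intervals that include 0, and the subunit Nfkb1 was at 0.11. Hnf4a, a factor of liver cells named after its values were seen, had 64 reads in PDR and 6 in SKYD.

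Most genes of a list of receptors tied to SAA, directly or not, were higher in PDR, unlike Saa3. Cd36 and P2rx7 were near even on the side of SKYD. Of 8 genes, 7 had a mean FPKM of 1 or more, with a median of 0.90, and 3 were over 2-fold higher in PDR. Fpr2, a formyl peptide receptor through which SAA attracts leukocytes, had 98.9 FPKM in PDR and 40.2 FPKM in SKYD, a difference of 1.28 [1.19, 1.37]. Fpr1 was at 1.09 and Tlr2 at 1.12, while Tlr4 was at 0.90. The scavenger receptor genes Cd36 and Scarb1 were at -0.11 and 0.18, and the ATP receptor gene P2rx7 was at -0.14.

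Genes that take up or break down haem and store iron, the cargo of haptoglobin and hemopexin, were read as a list of 10. All had a mean FPKM of 1 or more, with a median of -0.37. Of these 7 were higher in SKYD, 2 of them over 2-fold, and 3 were higher in PDR. Cd163, the macrophage receptor for haptoglobin with bound haemoglobin, had 0.741 FPKM in PDR and 3.29 FPKM in SKYD, a difference of -1.30 [-1.46, -1.14], and it passed the filter through its level in SKYD. Hmox1, the inducible enzyme that opens the haem ring, had 30.4 and 79.5 FPKM, a difference of -1.36 [-1.45, -1.27]. Lrp1, the receptor of hemopexin with bound haem, was at -0.25 while Hpx was higher in PDR. The ferritin genes Fth1 and Ftl1 were at -0.49 and -0.79. The haem transporter gene Slc48a1 was at -0.25, and the iron exporter gene Slc40a1, which passed the filter through SKYD, at -0.88. By ratio without a pseudocount, Slc40a1 was 3.02-fold higher in SKYD. Higher in PDR were the biliverdin reductase genes Blvrb, at 0.46 [0.41, 0.51], and Blvra, at 0.20 [0.13, 0.27], whose enzymes turn the product of haem breakdown into bilirubin, while Hmox2 was at 0.03 with an interval that includes 0. The erythroid list, which includes the haemoglobin genes, took 1.71% of reads in PDR and 2.21% in SKYD, with a median of -0.29 over 6 of 8 genes, none of which was past 2-fold, and Hba-a1 was its most abundant gene, followed by Hbb-bs at -0.36 and Hbb-bt at -0.21.

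Most markers of macrophages were higher in SKYD, as Saa3 was. Of 14 macrophage genes, 12 were higher in SKYD and 5 were over 2-fold higher, with a median of -0.65. The exceptions were Csf1r, the receptor of a macrophage growth factor, at 0.35, and the Fc receptor gene Fcgr1, at 0.54, and Adgre1 was near even at -0.10. The list took 3.38% of reads in PDR and 6.18% in SKYD, but the lysozyme gene Lyz2 alone gave 88.0% of its reads in PDR and 86.5% in SKYD. The complement genes C1qb and C1qc, next in level, were at -1.25 and -1.59. Per 1000 reads of this list, Saa3 had 35.8 in PDR and 73.2 in SKYD, 2.05-fold higher in SKYD (95% interval 2.02 to 2.07). Without Lyz2, a list chosen after the values were seen, the other 13 genes took 0.404% and 0.834% of reads, and per 1000 of these Saa3 was 1.81-fold higher in SKYD (95% interval 1.79 to 1.84). Of 15 genes of peritoneal macrophages, 13 had a mean FPKM of 1 or more and all 13 were higher in SKYD, with a median of -0.94. The whole list took 0.184% and 0.437% of reads, led by Alox15 at -1.53, Icam2 at -0.94 and Serpinb2 at -0.66, and per 1000 of its reads Saa3 was 1.57-fold higher in SKYD (95% interval 1.55 to 1.60). The 6 mesothelial genes with a mean FPKM of 1 or more, of 8, had values below 0, with a median of -1.15, but Upk3b passed the filter through SKYD alone, and the other 5 had a median of -0.92. Krt18, the most abundant, was at -0.16 [-0.35, 0.03], Krt8 at -1.84 and Krt19 at -1.38. The 8 genes took 0.00491% and 0.0122% of reads. The part of these cells in the difference of Saa3 was not tested.

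Most neutrophil genes were higher in PDR, unlike Hp. All 13 had a mean FPKM of 1 or more, 11 were higher in PDR and 4 were over 2-fold higher, with a median of 0.65. Of those 4, Mpo passed the filter through PDR. The 2 genes higher in SKYD, as Hp was, were Mmp8 at -0.56 [-0.61, -0.50] and Retnlg at -0.32 [-0.40, -0.25]. The list took 0.347% of reads in PDR and 0.255% in SKYD, led by S100a9 with a difference of 0.40, S100a8 with 0.37 and Ngp with 262 FPKM in PDR and 131 FPKM in SKYD. Per 1000 reads of this list, Hp had 171 in PDR and 332 in SKYD, 1.95-fold higher in SKYD (95% interval 1.90 to 1.99). Per 1000 reads of the macrophage list, Hp had 17.5 in PDR and 13.7 in SKYD, 1.28-fold higher in PDR (95% interval 1.25 to 1.31). Without Lyz2, again chosen after the values were seen, Hp was 1.44-fold higher in PDR on that scale (95% interval 1.41 to 1.47). The part of either cell type in the level of Hp was not tested.

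Genes of other cells that make Saa3 or Hp, or that share the aorta, were read as lists too. Of 8 adipocyte genes, 1 had a mean FPKM of 1 or more, the list took 0.00101% of reads in PDR and 0.00153% in SKYD, and Ucp1, at -0.83, was the most abundant. Next were Cfd, with 0 reads in PDR and 36 in SKYD, and Lipe, with 110 and 112. With 3 reads in PDR, Cfd would be 11.3-fold higher in SKYD, leaving aside the counting error of the 36. Named after their values were seen, Cidec had 15 and 42 reads, adiponectin (Adipoq) had 13 and 3, and the leptin gene Lep had 0 in both libraries. Of 8 fibroblast genes, 4 had a mean FPKM of 1 or more and all 4 were over 2-fold higher in SKYD, with a median of -1.71. Of these 4, Lum, Dpt and Mfap5 were under 1 FPKM in PDR and passed the filter through SKYD, so that the count and the median follow in part from the filter. The list took 0.00701% and 0.0286% of reads, and Dcn was the most abundant, with 10.03 FPKM in PDR and 39.4 FPKM in SKYD, a difference of -1.87. None of 7 endothelial genes reached a mean FPKM of 1, with Cldn5, Egfl7 and Cdh5 the most abundant and 0.000663% and 0.000488% of reads. Of 5 smooth muscle genes, Acta2 and Des reached it, Des through 1 library alone, with 0.000892% and 0.000625% of reads for the list, and Myh11, Tagln and Cnn1 had 0 reads in both libraries. Lymphocyte genes were abundant and differed in direction. The B cell list took 0.357% of reads in PDR and 0.0670% in SKYD, with 5 of its 7 genes at a mean FPKM of 1 or more, all 5 of them past 2-fold in PDR with a median of 2.25, and Cd79b, Cd79a and Ms4a1 as the most abundant, and the T cell list took 0.0449% and 0.277%, with all 7 past 2-fold in SKYD, a median of -2.41 and Cd8b1, Cd3d and Cd3g as the most abundant. Shares of reads are over all genes of a list, whatever their level. Each list median given had the same sign under TPM scaling and both kinds of centring.

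The genes around the SAA genes did not share the difference of Saa3. Saa3, Saa4, Saa1 and Saa2 lie in that order within 42.3 kb. Of the neighbours with a mean FPKM of 1 or more and a start within 100000 bases, Saal1 was at 0.56 [0.44, 0.69], Gtf2h1 at 0.15, Hps5 at -0.04, the pseudogene Gm9392 at 0.29, and Ldha, a lactate dehydrogenase with 619 FPKM in PDR and 563 FPKM in SKYD, at 0.14. Among the genes of this stretch that passed the filter, Saa3 was thus the 1 gene more than 2-fold higher in SKYD. Next to Orm1 and Orm2, besides Orm3, Akna was at 0.43 [0.31, 0.54].

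Genes with levels most like those of Saa3 were found by the distance between pairs of log2(FPKM + 1) values over the 2 libraries. The 3 nearest were Ccl9, a chemokine, at a distance of 0.32, Lyz1, a lysozyme, at 0.45, and Srgn, a proteoglycan of leukocyte granules, at 0.48. For Hp they were Tppp3, Ndufa4 and Anxa1, at 0.11, 0.12 and 0.15. Anxa1 encodes annexin A1, a protein of myeloid cells that signals through formyl peptide receptors. These genes were chosen for levels in both libraries like those of Saa3 or Hp, so their direction is no further result.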

How the data were processed

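Each group had 1 RNA library, made from the sorted cells of its mice. Per the submitters' processing notes and the article, the authors trimmed adaptors, removed reads of low quality, aligned the rest with TopHat2 2.0.9 and Bowtie2 2.0.6, counted per gene with HTSeq 0.6.1 and deposited FPKM with gene length, position and biotype. The notes name the build mm9, but 98.3% of 54409 shared genes have the start and end of GENCODE M21 on GRCm38, so positions are given on GRCm38. Whether the counting used strand is not given in the sources used here.

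Reads were recovered from the steps in FPKM times length, and 100% of values above 0 were whole within 0.01 reads. Reads fell on 17738 genes in PDR and 20499 in SKYD. The size behind FPKM was 1.02 and 0.983 times the reads on genes. A count of 0 allows up to 3 reads, 1.3e-05% of PDR and 1.18e-05% of SKYD. Ratios of ratios carry exact conditional intervals. Reads without molecular identifiers are not independent molecules. With 1 library a group there was no test, and no p-value was computed.

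The 10 members and 19 lists were chosen with earlier results of these data known. Named were the members, the 3 genes of highest mean FPKM in each list, genes of the cytokine, receptor, transcription factor and clearance lists with a mean FPKM of 1 or more, neighbours within 100000 bases, the 3 genes nearest to Saa3 and to Hp, the sort markers and Apoe. Other genes named, such as Crp, Hal, Mt2, Fgg, Trf, Hnf4a, exceptions within a list, genes under 1 FPKM in a library and genes with 0 reads, were chosen after their values were seen. Alternatives were pseudocounts of 0.1, 0.01 and none, no filter, a mean FPKM of 5 or more, TPM scaling, centring by the median or by a mean trimmed by 10% each side, a 4-fold threshold, a restriction to protein-coding genes, and the liver-made list without Hp or without Saa1, Saa2, Orm1 and Orm2. Shared sequence was counted in windows of 100 bases of the GENCODE transcripts. Identity came from global alignment, over aligned bases without gaps. Promoters came from RefSeq. The steps were tested on simulated data. Scripts ran in Python 3.11.15 with scipy 1.17.1, pandas 2.3.3, numpy 2.4.6, biopython 1.88 and matplotlib 3.10.9.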

Additional observations from a re-analysis of the deposited data

How the results depend on the processing

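Under the settings given here no result changed direction, while reads per 1000 of a marker list did turn the direction of some members, as described with those values. The members' signs were 8 positive and 2 negative under every setting, except at a mean FPKM of 5 or more, which left 5 members, 3 of them positive. Setting the pseudocount aside and leaving Lyz2 out of the macrophage list were chosen after seeing the data. The log2 difference of Saa3 ran from -1.95 to -1.94 over its alternatives.

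The liver-made median of 1.04 became 1.17 and 1.20 with pseudocounts of 0.1 and 0.01, 1.21 with none, 1.35 at a mean FPKM of 5 or more, 1.26 without Hp and 1.66 without the paralogs Saa1, Saa2, Orm1 and Orm2. Saa3 minus that median, -2.99, became -3.16 with a pseudocount of 0.01 and with none, -3.30 at a mean FPKM of 5 or more, -3.21 without Hp and -3.61 without the paralogs. A lower pseudocount shrinks low genes less, and the other settings leave out members by construction.

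At a mean FPKM of 5 or more, genes over 2-fold higher were 464 in PDR and 373 in SKYD, against 767 and 719. Members over 2-fold higher in PDR were 3 of the 5 left, against 5 of 10, since fewer genes were tested. No share over all genes is given for that filter, so these 3 have no background beside them. Among protein-coding genes, 542 were higher in PDR and 473 in SKYD. At 4-fold, 194 of the 10399 genes tested were higher in PDR and 216 in SKYD. Of the 10 members, 1, Hpx, was higher in PDR and 0 in SKYD. With pseudocounts of 0.1 and 0.01, 7 members were over 2-fold higher in PDR, against 1057 and 1096 of all genes, or 10.2% and 10.5%. Of 78 further values for single members, 66 stayed within their counting interval and 12 moved beyond it, in Saa2, Saa4 and Itih4, which have low FPKM, and in Saa3 and Hp per 1000 macrophage reads. No paired analysis was possible because each group has 1 library. Counting intervals leave out the spread between mice, which these data cannot give, and Orm2, Saa2 and Saa4 have at most 90 reads in SKYD.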
